A study of Rattus norvegicus with 372 samples.

Results

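The genes described here code for liver enzymes that open ester, amide and epoxide bonds, or that add oxygen to nitrogen and sulphur, without the help of a cytochrome P450: carboxylesterases (Ces1d, Ces1e, Ces2c, Ces2e), arylacetamide deacetylase (Aadac), microsomal and soluble epoxide hydrolase (Ephx1, Ephx2) and flavin-containing monooxygenases (Fmo1, Fmo5). They were chosen by name, and 7 of the 9 matched a gene symbol among the 20946 genes of the whole-transcriptome (WT) assay. Ces1e and Ces2c matched no symbol and were not analysed here. All 7 measured genes were among the 10191 genes of the assay that averaged 10 counts per well or more and were tested, and each was read by 1 probe. The 6 of them that the smaller surrogate (ST) assay also holds, all but Ces2e, served as a check among its 2604 genes.

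The cells were hepatocytes freshly taken from male Wistar rats, kept between collagen layers in 96-well plates in William's medium E with insulin, dexamethasone and EGF, and lysed after 24 h of treatment. TempO-Seq counts pairs of detector oligos that are ligated on the RNA of a lysed well. Every treated and vehicle well held 0.5% DMSO, and further wells held medium alone. Acetaminophen, caffeine, isoniazid and valproic acid (labelled Valproic) were given at 10000 and 400 µM, ranitidine at 4000 and 160 µM, naproxen at 2000 and 80 µM, chloramphenicol at 450 and 18 µM, diclofenac at 400 and 16 µM, and indomethacin at 300 and 12 µM. WY14643 was given at 200 and 8 µM, sulfasalazine at 100 and 4 µM, simvastatin at 60 and 2.4 µM, ketoconazole at 15 and 0.6 µM, and doxorubicin at 2 and 0.08 µM. Each of the 28 treatments had 3 wells in each of 2 batches. A batch was 1 rat, 1 library preparation and 1 sequencing run, so these cannot be told apart, and wells of a batch were technical replicates: p-values measure the spread between wells, and only the 2 batches repeat a result in another animal. Vehicle and medium each had 3 wells in batch 1 and 6 in batch 2.

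Carboxylesterases and arylacetamide deacetylase sit in the endoplasmic reticulum and cut ester and amide prodrugs as well as stored lipids. Epoxide hydrolases add water to reactive epoxides, the microsomal enzyme mostly to those made from foreign compounds and the soluble enzyme to those made from fatty acids, and Ephx2 is a known target of the lipid sensor PPARα. Flavin-containing monooxygenases oxidise amines and sulphides with NADPH.

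The WT libraries held 2.29 to 8.98 Mreads (1 Mread is 1000000 reads), with batch medians of 6.21 and 7.22 Mreads, and the ST libraries 0.558 to 2.21 Mreads. The lowest WT library of batch 2, at 2.29 Mreads, was a well of medium alone. In the 9 vehicle wells the hepatocyte markers were high, with a median of 13350 CPM (counts scaled to a library of 1000000 reads) for Alb and 199.9 for Hnf4a, and none of the 9 markers measured had a median under 1 CPM. Of the markers of other cells, all 6 endothelial ones had a median under 1 CPM, as did 3 of 8 for Kupffer cells and leukocytes, 4 of 6 for stellate cells and 2 of 4 for cholangiocytes, with Krt7 at 0 in every vehicle well. Col3a1 (19.7 to 125 CPM) and Epcam (27.3 to 44.3 CPM) were the highest of the others. In the lysate of a whole well, fewer cells of a type and less RNA per cell cannot be told apart.

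Of the 196 combinations of a measured gene and a treatment, 45 were called higher and 54 lower than vehicle. A call is an adjusted p under 0.05 in edgeR's quasi-likelihood test over both batches with batch as a term, and the change is given as the log2 fold change (L2FC) ± its standard error (SE). Over all genes tested, 15.2% of gene and treatment combinations were called higher and 15.0% lower. With each batch fitted by itself, 35 combinations were called higher and 42 lower in both, beside 8.13% and 7.7% of all combinations. Of the 98 combinations at a high concentration 71 were called, and of the 98 at a low concentration 28. Over all genes, 25.4% were called higher and 25.5% lower at high concentrations, and 4.91% and 4.5% at low ones.

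**Figure D1:**
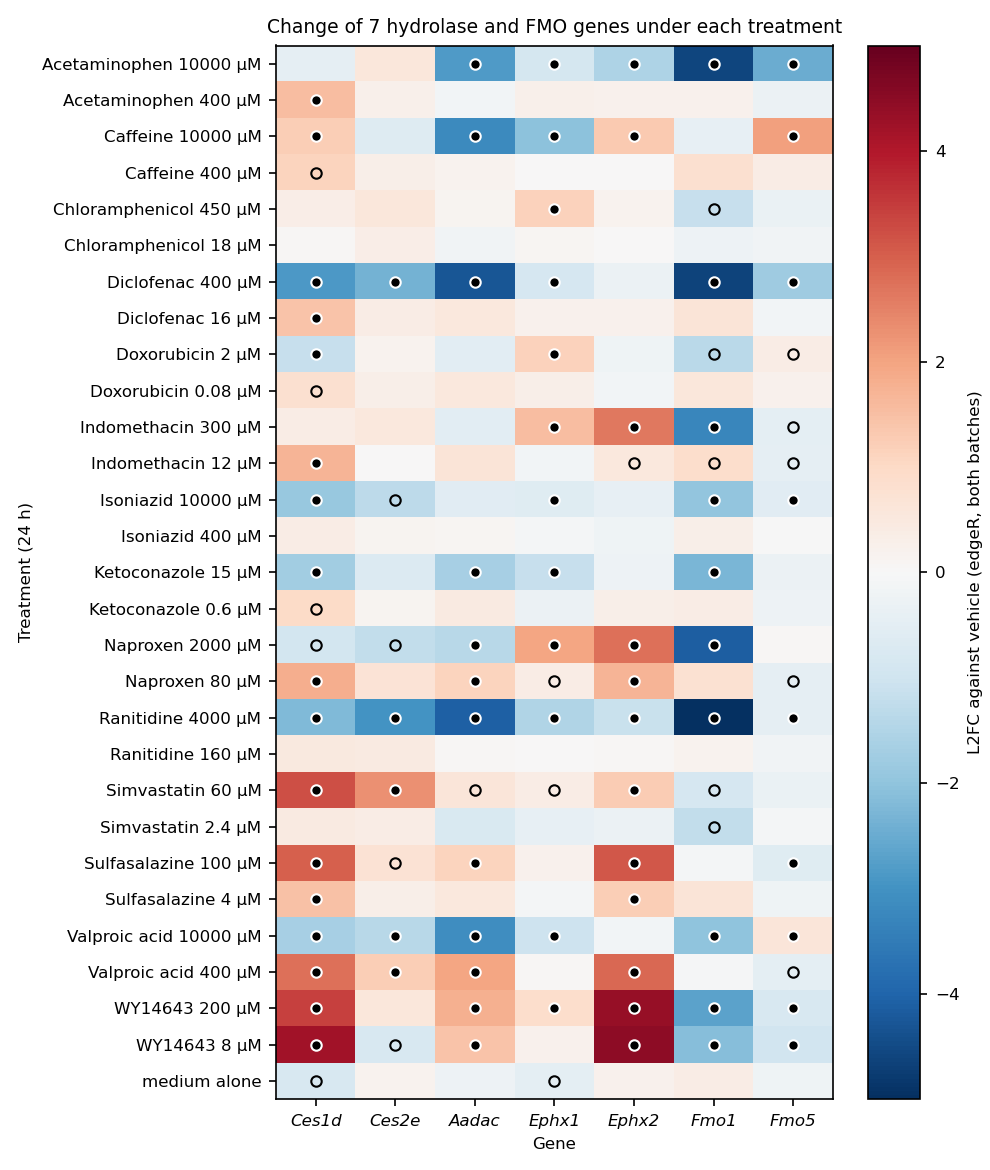
L2FC against vehicle of the 7 measured genes (columns) under each of the 28 treatments and in medium alone (rows), from the fit over both batches; red is higher and blue lower. Filled circles mark calls made in each batch alone with one sign, and open circles calls made only over both batches. The darkest red cells are those of Ces1d and Ephx2 under WY14643, the darkest blue one is Fmo1 under ranitidine at 4000 µM, and the high concentrations of ranitidine, diclofenac and acetaminophen are blue nearly throughout.

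Ces1d, a carboxylesterase of the lipid droplet and endoplasmic reticulum that also hydrolyses triacylglycerol, was the gene most often higher. It rose in 14 of 28 treatments and fell in 7, and 0.599% of the genes tested were called higher and 20.4% lower in more treatments. In vehicle wells its probe gave 8.95, 10.2 and 9.64 CPM in batch 1, and from 9.79 to 16.7 CPM with a median of 13.3 in the 6 wells of batch 2. WY14643, a synthetic PPARα ligand, at 8 µM gave 130, 129 and 148 CPM in batch 1 and 182, 211 and 218 CPM in batch 2. All 6 treated wells lay above every vehicle well, and the L2FC was 4.19 ± 0.206 (adjusted p = 1.36e-44). At 200 µM the L2FC was 3.44 ± 0.203, and the direct comparison of the higher with the lower concentration was -0.75 ± 0.206 (adjusted p = 0.0107), called over both batches but not in each alone. Next came simvastatin at 60 µM with 60.0 ± 18.2 CPM (SD, n = 3 wells) in batch 1 and 150 ± 14.2 CPM in batch 2, sulfasalazine at 100 µM with 76.8 ± 10.8 and 81.6 ± 14.1 CPM, and valproic acid at 400 µM with 54.8 ± 5.32 and 94.0 ± 21.6 CPM. Their L2FCs were 3.22, 2.99 and 2.74.

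Low concentrations carried most of the Ces1d rises. It rose in 10 of the 14 low concentrations and in 4 of the 14 high ones, and all 7 falls were at high concentrations. Beside WY14643 and valproic acid, it was called higher at the low concentrations of naproxen (L2FC 1.83), indomethacin (1.71), acetaminophen (1.53), sulfasalazine (1.48), diclofenac (1.41), caffeine (1.11), ketoconazole (0.94) and doxorubicin (0.81). The calls for caffeine, ketoconazole and doxorubicin were not made in each batch alone. Of all genes, 0.118% were called in either direction under caffeine, 0.137% under diclofenac, 1.325% under doxorubicin, 1.38% under acetaminophen and 1.62% under ketoconazole. The shares were 5.87% under indomethacin, 16.0% under naproxen, 17.4% under sulfasalazine, 29.1% under valproic acid and 56.2% under WY14643. The 10 rises share their 9 vehicle wells, so they are not independent, and the part of well position was not tested. In batch 1 the vehicle wells were all on plate 4, and the plate 5 chemicals had none on their own plate. In batch 2, set against the vehicle wells of the treatment's own plate alone, Ces1d was above 0 in 10 of these 10, with L2FCs from 0.34 to 3.93, and called in 9. Of the low concentration calls of the other genes, all kept their sign in that fit. It called 5 of 5 for Ephx2, 3 of 3 for Aadac, the 1 rise of Ces2e, 2 of 4 for Fmo5 and 1 of 2 falls of Fmo1, but not the 1 rise of Ephx1, the 1 fall of Ces2e or the 1 rise of Fmo1. Medium alone was on the other side of vehicle, at 5.88 ± 0.608 CPM in batch 1 and 6.80 ± 1.42 CPM in batch 2 (L2FC -0.81 ± 0.212, adjusted p = 0.00411).

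The largest fall of Ces1d was under diclofenac at 400 µM, an anti-inflammatory acid. The wells gave 1.22, 0.161 and 0.515 CPM in batch 1 and 4.13, 3.05 and 0.800 CPM in batch 2, from 11 and 57 counts in all. Every treated well lay below every vehicle well of its batch, and the L2FC was -2.87 ± 0.299 (adjusted p = 8.14e-17). Ranitidine at 4000 µM (L2FC -2.21), isoniazid at 10000 µM (-1.91), ketoconazole at 15 µM (-1.72), valproic acid at 10000 µM (-1.65) and doxorubicin at 2 µM (-1.15) also lowered it in each batch alone, and naproxen at 2000 µM (-0.93) over both batches. Diclofenac, valproic acid, naproxen, ketoconazole and doxorubicin thus had Ces1d called above vehicle at the low and below vehicle at the high concentration. The direct comparison of high with low was -4.29 for diclofenac, -2.66 for ketoconazole and -1.95 for doxorubicin, each called in each batch alone, and -4.39 ± 0.265 for valproic acid (adjusted p = 5.26e-35) and -2.76 ± 0.248 for naproxen (adjusted p = 5.09e-20).

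Aadac, which removes acetyl groups from aryl amides and esters, rose in 6 treatments and fell in 7. Of the genes tested, 24.5% were called higher and 20.4% lower in more treatments. Its levels ran most like those of Ces1d among the measured genes (Pearson's r = 0.795, Spearman's rho = 0.83 over 60 groups of wells, as group means of log2(CPM + 1) centred within a batch). Both genes were read from the same libraries and the groups share batches, so this is a description. Because the 2 genes ran together, the 250 bases before their RefSeq starts (GRCr8, plus strand, 5′ to 3′) are shown. They span chr19:30046244-30046493 for Ces1d and chr2:146313029-146313278 for Aadac, and capitals mark a match to the dioxin response core GCGTG.
Ces1d: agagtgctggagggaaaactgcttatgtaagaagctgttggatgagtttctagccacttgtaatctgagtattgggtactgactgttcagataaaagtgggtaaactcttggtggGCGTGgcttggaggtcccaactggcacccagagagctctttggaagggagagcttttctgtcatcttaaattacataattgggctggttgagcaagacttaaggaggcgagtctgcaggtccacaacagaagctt
Aadac: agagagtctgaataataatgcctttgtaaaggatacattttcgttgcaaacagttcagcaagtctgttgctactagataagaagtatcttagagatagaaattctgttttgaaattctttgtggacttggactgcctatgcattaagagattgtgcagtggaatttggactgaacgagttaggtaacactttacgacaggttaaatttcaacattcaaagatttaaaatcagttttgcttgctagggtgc
Both strands were searched for 3 short motifs: the nuclear receptor half-site AGGTCA, the antioxidant response core TGACNNNGC and GCGTG. The Ces1d window held 1 match, 135 bases before the start, and the Aadac window none. Of 33469 windows of the same length, 14.1% held AGGTCA, 10.1% TGACNNNGC and 25.9% GCGTG. The windows hold 46.8% G and C for Ces1d and 35.6% for Aadac.

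In vehicle wells Aadac gave 6.17, 5.83 and 5.18 CPM in batch 1 and 1.95 to 5.18 CPM, median 2.43, in batch 2. Under valproic acid at 400 µM it gave 20.4, 16.4 and 22.5 CPM in batch 1 and 12.8, 11.01 and 11.1 CPM in batch 2, above every vehicle well of the batch (L2FC 1.96 ± 0.200, adjusted p = 3.75e-16). WY14643 raised it at 200 µM (L2FC 1.79) and at 8 µM (1.42), and the high against low difference of 0.37 was not called. Naproxen at 80 µM and sulfasalazine at 100 µM raised it by an L2FC of 1.10 each. Simvastatin at 60 µM was its other rise, not called in each batch alone. There the pooled CPM over that of vehicle was 0.927 in batch 1 and 2.05 in batch 2. Under diclofenac at 400 µM the 3 wells of batch 1 held 7 counts in all and those of batch 2 held 1, where the vehicle wells held 112 and 115. The ratio of pooled CPM to vehicle was 0.0681 in batch 1 (95% exact counting interval 0.0268 to 0.145) and 0.0168 in batch 2 (0.000421 to 0.0954). Intervals and floors cover counting error only. Ratios are scaled by library totals alone, and the L2FCs by TMM as well. Under diclofenac at 400 µM, library size alone moved the median L2FC of all genes by 0.14. Ranitidine at 4000 µM, with 2 and 7 counts, gave ratios of 0.0189 (0.00226 to 0.0699) and 0.0934 (0.0367 to 0.199). Caffeine at 10000 µM (L2FC -3.18), valproic acid at 10000 µM (-3.11), acetaminophen at 10000 µM (-2.85), ketoconazole at 15 µM (-1.66) and naproxen at 2000 µM (-1.39) lowered it in each batch alone. The difference between the concentrations of valproic acid was -5.07 ± 0.301 (adjusted p = 1.46e-35).

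Ces2e, a carboxylesterase of the group that prefers esters with a large alcohol part, was the lowest in counts, with a mean of 15.1 per well, and most of its combinations were not called: 3 were higher, 6 lower and 19 not called (L2FC -0.67 to 0.67). Of the genes tested, 50.5% were called higher and 25.5% lower in more treatments. Its probe gave 3.03, 2.00 and 1.43 CPM in the vehicle wells of batch 1 and 0.751 to 2.36 CPM, median 1.58, in batch 2. Simvastatin, a statin that blocks cholesterol synthesis, at 60 µM gave 10.6, 9.66 and 10.9 CPM in batch 1 and 6.76, 6.29 and 9.03 CPM in batch 2. All 6 wells lay above every vehicle well, and the L2FC was 2.28 ± 0.235 (adjusted p = 7.65e-16). Valproic acid at 400 µM raised it (1.24) and at 10000 µM lowered it (-1.37), with a direct difference of -2.60 ± 0.312 (adjusted p = 2.11e-13). Ranitidine at 4000 µM left 3 counts in batch 1 and 6 in batch 2, beside 44 and 61 in vehicle, as ratios of 0.0722 (0.0143 to 0.225) and 0.151 (0.0533 to 0.348). Unlike Ces1d and Aadac, Ces2e was called lower under WY14643 at 8 µM (L2FC -0.79 ± 0.327, adjusted p = 0.0311), though not in each batch alone, and was 0.58 ± 0.265 at 200 µM (adjusted p = 0.0581). The rise under sulfasalazine at 100 µM (0.73 over both batches) was 1.28 in batch 1 and -0.04 in batch 2. The carboxylesterases are a family of close copies, so reads of a probe may in part come from a related gene.

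**Figure D2:**
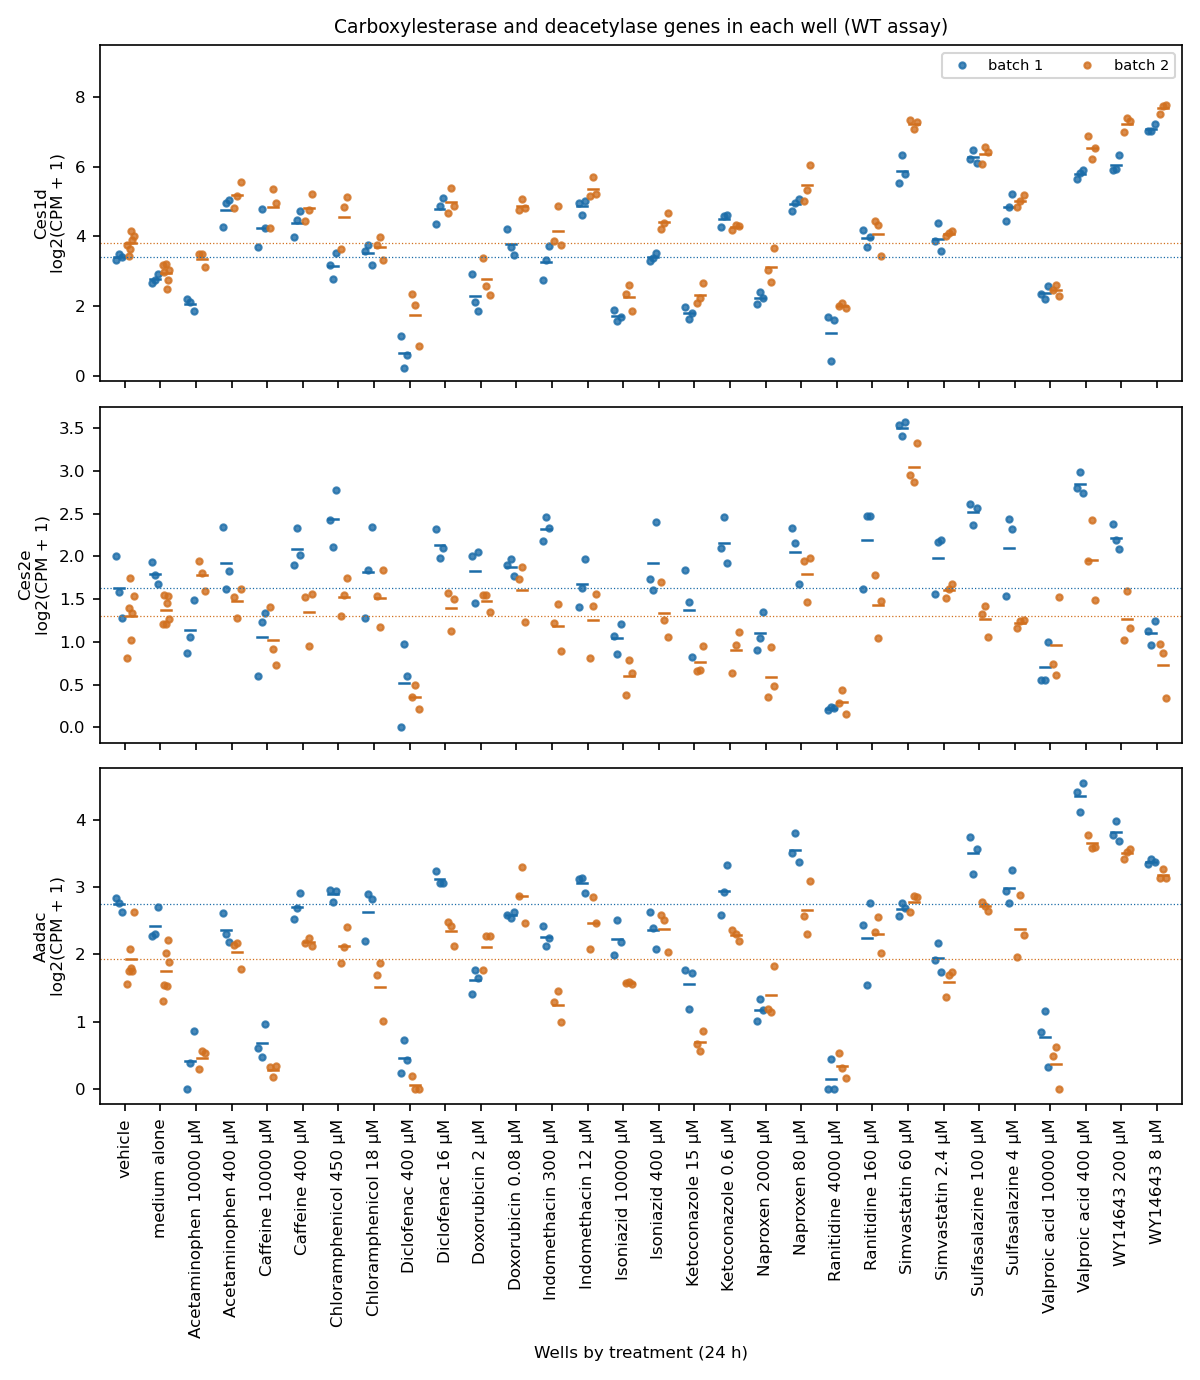
log2(CPM + 1) of Ces1d, Ces2e and Aadac in every WT well (points), by treatment, for batch 1 (blue) and batch 2 (orange). Short bars are group means of log2(CPM + 1), and dotted lines the vehicle mean of each batch. Ces1d wells of WY14643 at 8 µM reach 218 CPM against at most 16.7 CPM in vehicle, and the Aadac wells of diclofenac at 400 µM lie near 0.

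Ephx1, the microsomal epoxide hydrolase, was the most counted of the genes, with a mean of 6600 counts per well, and changed in both directions. It rose in 7 treatments and fell in 7, and 13 of these 14 were at high concentrations. Of the genes tested, 18.6% were called higher and 20.4% lower in more treatments. Its probe gave 950.9, 807.8 and 843.8 CPM in the vehicle wells of batch 1 and 765.9 to 972.2 CPM, median 862.4, in batch 2. Naproxen at 2000 µM gave 3245, 3373 and 3336 CPM in batch 1 and 3578, 3561 and 3194 CPM in batch 2, every well above every vehicle well (L2FC 1.98 ± 0.124, adjusted p = 2.54e-33). Indomethacin at 300 µM (1.56), chloramphenicol at 450 µM (1.17), doxorubicin at 2 µM (1.14) and WY14643 at 200 µM (0.89) raised it in each batch alone. Caffeine at 10000 µM gave 151, 152 and 171 CPM in batch 1 and 214, 210 and 237 CPM in batch 2, every well below every vehicle well (L2FC -2.06 ± 0.136, adjusted p = 1.15e-31). Ranitidine at 4000 µM (-1.50), ketoconazole at 15 µM (-1.15), valproic acid at 10000 µM (-1.05), acetaminophen at 10000 µM (-0.87), diclofenac at 400 µM (-0.83) and isoniazid at 10000 µM (-0.59) followed, each in each batch alone. The falls differed between the batches for acetaminophen (-1.39 and -0.47), valproic acid (-0.67 and -1.47) and diclofenac (-0.49 and -1.13), each past the test of the difference, and 1 diclofenac well of batch 1, at 975 CPM, lay above the vehicle wells. Medium alone was lower than vehicle, at 654 ± 60.6 CPM in batch 1 and 537 ± 27.8 CPM in batch 2 (L2FC -0.50 ± 0.112, adjusted p = 0.00045).

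Ephx1 has 2 starts among the RefSeq windows, both on the minus strand of chromosome 13 (GRCr8). Of these the one at chr13:95263118-95263367, shown because it held matches, had 2 to AGGTCA, 196 and 131 bases before the start, and 1 to TGACNNNGC, 57 bases before it (capitals, printed 5′ to 3′ in the direction of the gene).
Ephx1: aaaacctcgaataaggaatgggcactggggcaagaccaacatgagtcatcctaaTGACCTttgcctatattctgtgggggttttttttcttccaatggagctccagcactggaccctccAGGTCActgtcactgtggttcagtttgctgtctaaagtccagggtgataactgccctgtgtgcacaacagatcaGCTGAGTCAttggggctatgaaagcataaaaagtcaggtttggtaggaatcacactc
The other start, at chr13:95275853-95276102, held no match. The Fmo5 window also held 2 matches, AGGTCA 222 and GCGTG 146 bases before the start, and those of Ces2e and Fmo1 held none. Among all windows, 14.1% held AGGTCA, 10.1% TGACNNNGC and 25.9% GCGTG. A match is a string of letters and says nothing of binding.

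Ephx2, the soluble epoxide hydrolase, rose in 11 treatments and fell in 2, and 3.61% of the genes tested were called higher and 55.3% lower in more treatments. In vehicle wells its WT probe gave 9.07, 8.37 and 9.11 CPM in batch 1 and 8.46 to 11.5 CPM, median 9.43, in batch 2. WY14643 at 8 µM gave 142, 165 and 163 CPM in batch 1 and 163, 208 and 185.5 CPM in batch 2. Every treated well was above every vehicle well (L2FC 4.47 ± 0.156, adjusted p = 6.22e-63), the largest rise of any of the 7 genes. At 200 µM the L2FC was 4.37 ± 0.156, and the high against low difference of -0.10 was not called. The ST assay reads Ephx2 with another probe, which gave 5472, 4270 and 5526 CPM of its own library in batch 1 and 5209, 5027 and 5092 CPM in batch 2 under 8 µM, beside 286 to 316 and 341 to 441 CPM in vehicle (L2FC 4.35). CPM is counted within an assay, so levels are not comparable between them, and the 2 probes gave L2FCs that differed by less than their SEs.

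Below WY14643 came sulfasalazine at 100 µM with 67.9 ± 12.5 and 78.6 ± 6.99 CPM in the batches (L2FC 3.09), valproic acid at 400 µM with 65.2 ± 12.5 and 68.2 ± 2.64 CPM (2.86), naproxen at 2000 µM with 64.7 ± 4.99 and 62.6 ± 2.82 CPM (2.77) and indomethacin at 300 µM with 51.1 ± 3.53 and 54.1 ± 9.14 CPM (2.64). In batch 1 the wells of sulfasalazine (60.0 to 82.4 CPM), valproic acid (53.1 to 78.1 CPM) and naproxen (59.1 to 68.7 CPM) overlapped. Naproxen at 80 µM (1.72), caffeine at 10000 µM (1.33), simvastatin at 60 µM (1.27) and sulfasalazine at 4 µM (1.23) raised it in each batch alone, and indomethacin at 12 µM (0.52) over both batches. Sulfasalazine, simvastatin, indomethacin and naproxen had more of it at the high than at the low concentration, with differences of 1.86, 1.57, 2.12 and 1.05. Valproic acid had less, with a difference of -2.99 ± 0.177 (adjusted p = 9.52e-36), and at 10000 µM it was not called against vehicle (-0.13 ± 0.172). Acetaminophen at 10000 µM gave 1.65, 2.46 and 2.42 CPM in batch 1 and 3.55, 2.37 and 1.69 CPM in batch 2, all below every vehicle well (L2FC -1.55 ± 0.212, adjusted p = 3.54e-11), and ranitidine at 4000 µM was the other fall (-1.10).

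**Figure D3:**
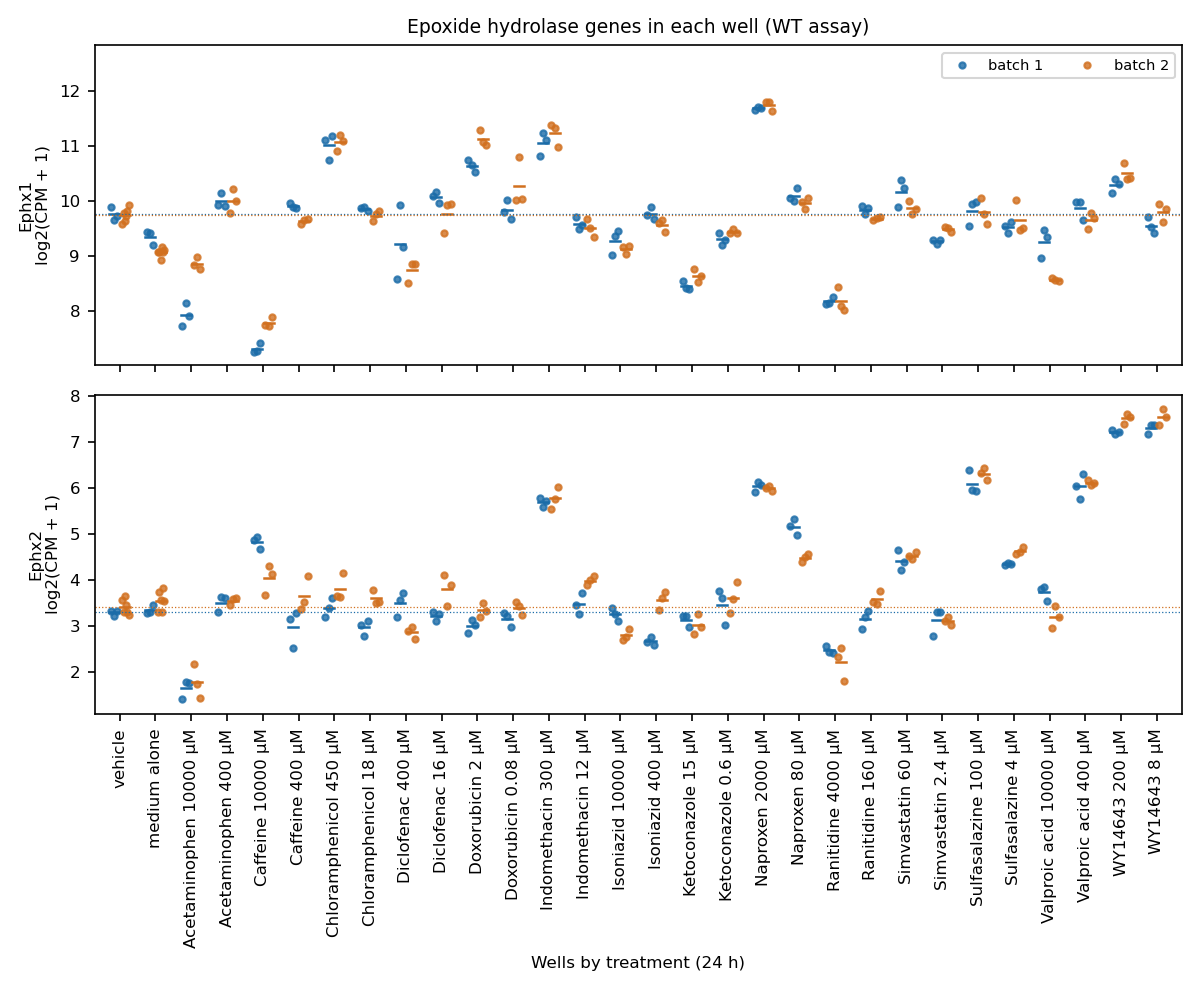
log2(CPM + 1) of Ephx1 and Ephx2 in every WT well (points), by treatment, for batch 1 (blue) and batch 2 (orange), with group means of log2(CPM + 1) as short bars and the vehicle mean of each batch as a dotted line. Ephx2 wells of WY14643 at 8 µM lie between 142 and 208 CPM, against at most 11.5 CPM in vehicle, and Ephx1 wells of naproxen at 2000 µM all exceed 3000 CPM.

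Fmo1, a flavin-containing monooxygenase of wide substrate range, fell in 14 treatments and rose in 1, and 1.42% of the genes tested were called lower and 74.1% higher in more treatments. In vehicle wells its probe gave 9.20, 5.10 and 6.07 CPM in batch 1 and 1.90 to 4.43 CPM, median 3.26, in batch 2. Under ranitidine, a histamine receptor blocker with a tertiary amine, at 4000 µM it gave 0.299, 0.355 and 0.167 CPM in batch 1, from 5 counts. In batch 2 the 3 wells held 0 counts, which allows up to 0.115 CPM over the group (3 counts). Taken against that floor and the pooled vehicle level it was at least 26.9-fold lower in batch 2, and the exact counting interval of the ratio, which also holds the counting error of vehicle, reached up to 0.0463. The ratio in batch 1 was 0.0384 (0.0123 to 0.0917). The adjusted p over both batches was 4.09e-15. Diclofenac at 400 µM left 2 and 5 counts, acetaminophen at 10000 µM 2 and 3, naproxen at 2000 µM 6 and 4, and indomethacin at 300 µM 8 and 9, beside 138 and 124 in vehicle. Isoniazid at 10000 µM, ketoconazole at 15 µM and valproic acid at 10000 µM lowered it with L2FCs of -1.99, -2.27 and -2.02, each in each batch alone.

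WY14643 lowered Fmo1 at both concentrations, to 0.945 ± 0.187 and 0.286 ± 0.0761 CPM in the batches at 200 µM (L2FC -2.69) and to 0.904 ± 0.87 and 0.686 ± 0.243 CPM at 8 µM (-2.11). Its only call higher, under indomethacin at 12 µM (0.89 ± 0.287, adjusted p = 0.0434), was not made in each batch alone. There the wells gave 11.6, 8.39 and 10.6 CPM in batch 1, of which 1 lay within the range of vehicle, and 6.26, 7.29 and 4.54 CPM in batch 2, all above it. Simvastatin lowered it at 2.4 µM (-1.22) and at 60 µM (-0.86), but at 60 µM the batches gave -2.08 and 0.05.

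Fmo5, which unlike its relatives acts on ketones, changed less. It fell in 11 treatments and rose in 3, and 3 of these 14 changes were past an L2FC of 1 in size. In more treatments than Fmo5, 6.35% of the genes tested were called lower and 50.5% higher. In vehicle wells its probe gave 21.1, 19.7 and 23.2 CPM in batch 1 and 14.5 to 20.4 CPM, median 15.4, in batch 2. Caffeine at 10000 µM gave 74.6, 89.3 and 69.0 CPM in batch 1 and 61.7, 71.2 and 56.0 CPM in batch 2, every well above every vehicle well (L2FC 2.05 ± 0.133, adjusted p = 3.56e-32). Valproic acid at 10000 µM was the other rise made in each batch alone (0.60), and at 400 µM Fmo5 fell (-0.51), so that the direct difference was 1.11 ± 0.154 (adjusted p = 1.03e-10). Acetaminophen at 10000 µM gave 2.20, 2.46 and 1.81 CPM in batch 1 and 2.86, 2.96 and 2.14 CPM in batch 2, every well below every vehicle well (L2FC -2.46 ± 0.181, adjusted p = 1.15e-27). Diclofenac at 400 µM followed (-1.77), and WY14643 at 8 µM (-0.96) and 200 µM (-0.81) lowered it in each batch alone.

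**Figure D4:**
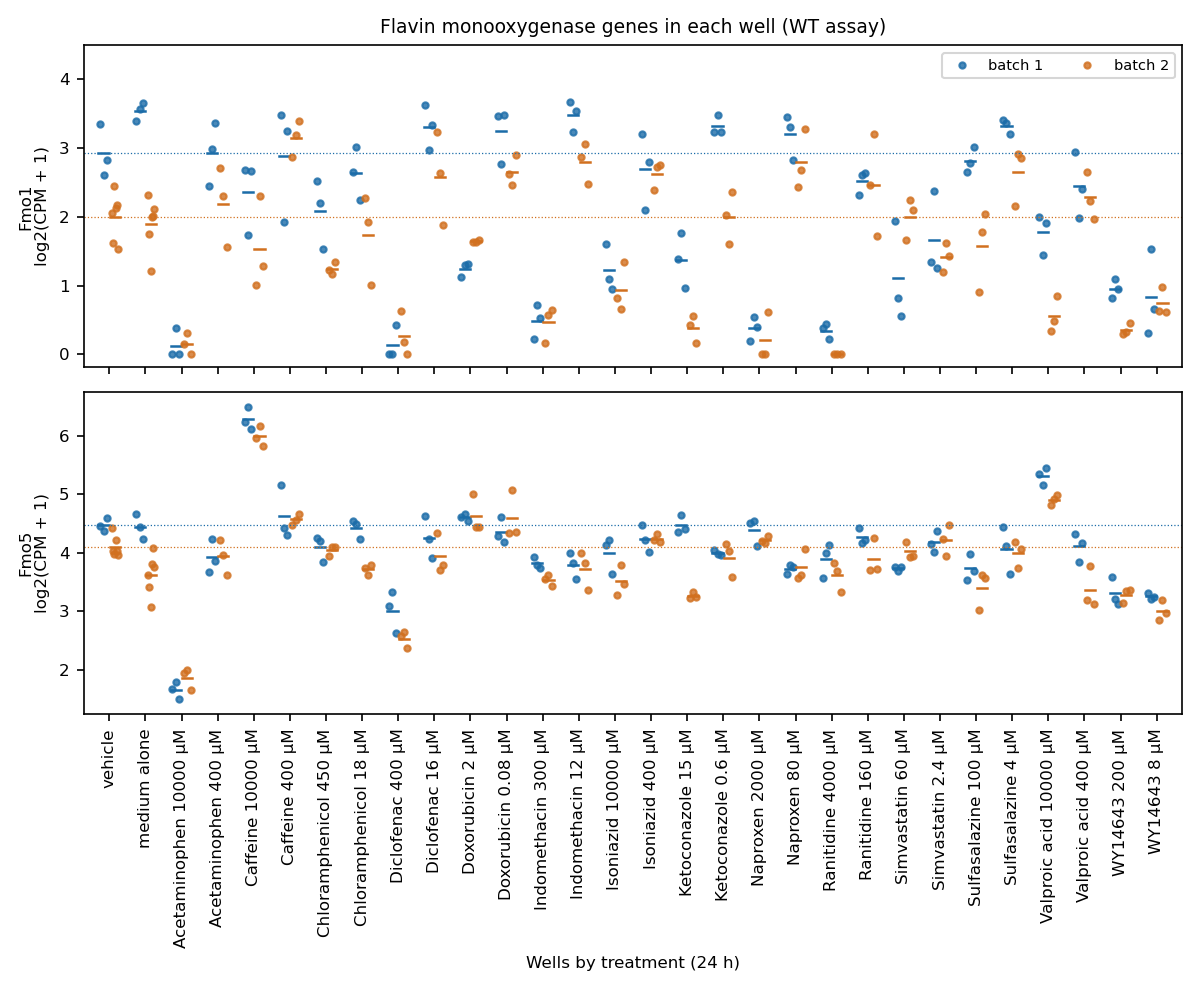
log2(CPM + 1) of Fmo1 and Fmo5 in every WT well (points), by treatment, for batch 1 (blue) and batch 2 (orange), with group means of log2(CPM + 1) as short bars and the vehicle mean of each batch as a dotted line. Fmo1 wells of ranitidine at 4000 µM lie at or near 0, and Fmo5 wells of caffeine at 10000 µM lie between 56.0 and 89.3 CPM, above the vehicle wells.

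By treatment, the broadest falls were under ranitidine at 4000 µM, where all 7 genes fell beside 33.9% of all genes, and diclofenac at 400 µM, where 6 of 7 fell beside 35.8%. Acetaminophen at 10000 µM, an analgesic that hepatocytes turn into a reactive quinone imine, lowered 5 beside 40.1%. Isoniazid at 10000 µM lowered 5 beside 17.3%, valproic acid at 10000 µM 5 beside 33.2%, and ketoconazole at 15 µM 4 beside 26.3%. The median L2FC of the 7 genes was -2.21 for ranitidine, -2.38 for diclofenac and -1.55 for acetaminophen, while that of all genes was -0.03, 0.01 and -0.02. In the same wells hepatocyte markers were lower too: their summed level was 12090 to 17890 CPM under ranitidine, 7069 to 9577 under diclofenac, 23330 to 36420 under acetaminophen, 15990 to 22740 under valproic acid, 25420 to 30860 under isoniazid and 19990 to 23530 under ketoconazole, beside 37790 to 45100 in vehicle. All 9 hepatocyte markers fell under ranitidine, diclofenac and valproic acid, 5 of 9 fell and 1 rose under acetaminophen, 8 fell under isoniazid, and 7 fell and 1 rose under ketoconazole. Of the 5 Kupffer cell and leukocyte markers tested, 4 fell and 1 rose under ranitidine, diclofenac, acetaminophen, valproic acid and ketoconazole, and 2 fell and 1 rose under isoniazid. Their summed level was at most 35.3 CPM under the first 4, 21.8 to 50.7 CPM under ketoconazole and 23.8 to 96.5 CPM under isoniazid, beside 31.4 to 63.5 CPM in vehicle. Both stellate markers tested fell under ranitidine (9.81 to 64.1 CPM), diclofenac (27.3 to 114.5 CPM) and acetaminophen (10.65 to 44.5 CPM), beside 35.0 to 168 CPM in vehicle, 1 fell under isoniazid and valproic acid, and neither was called under ketoconazole. Both cholangiocyte markers tested fell under diclofenac, with a summed level of 4.36 to 9.52 CPM beside 33.1 to 49.0 CPM in vehicle, and 1 rose under valproic acid (49.6 to 74.2 CPM), isoniazid and ketoconazole. Under ranitidine 1 rose and 1 fell, and neither was called under acetaminophen. No endothelial marker passed the filter, and their summed level was at most 5.77 CPM in these wells. The part of these markers in the falls was not tested.

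Rises were more mixed. Simvastatin at 60 µM raised 5 of the 7 genes beside 11.4% of all genes, valproic acid at 400 µM 4 beside 15.1%, naproxen at 80 µM 4 beside 8.64%, sulfasalazine at 100 µM 4 beside 21.3%, WY14643 at 200 µM 4 beside 26.0% and WY14643 at 8 µM 3 beside 28%. Under simvastatin at 60 µM, 3 calls were made in each batch alone, and Aadac and Ephx1 wells overlapped those of vehicle in both batches. It also lowered 1 gene beside 12.5% of all genes lower. Valproic acid at 400 µM lowered 1 beside 14.0%, naproxen at 80 µM 1 beside 7.40%, sulfasalazine at 100 µM 1 beside 19.6% and WY14643 at 200 µM 2 beside 25.4%. WY14643 at 8 µM lowered Ces2e, Fmo1 and Fmo5 beside 28.2% of all genes lower, while it raised Ces1d, Aadac and Ephx2. Caffeine at 10000 µM raised Ces1d, Ephx2 and Fmo5 beside 34.6% of all genes and lowered Aadac and Ephx1 beside 31.6%. Naproxen at 2000 µM raised both epoxide hydrolases beside 27.6% of all genes higher and lowered Ces1d, Ces2e, Aadac and Fmo1 beside 26.2% of all genes lower, and indomethacin at 300 µM raised both epoxide hydrolases, beside 27.1% higher, and lowered both monooxygenases, beside 27.6% lower. Hepatocyte markers moved in these wells too. Of the 9, 5 were higher and 1 lower under simvastatin at 60 µM, 4 higher and 2 lower under WY14643 at 200 µM, 4 higher under naproxen at 80 µM and sulfasalazine at 100 µM, 3 higher under valproic acid at 400 µM, and 1 higher and 1 lower under WY14643 at 8 µM. Under naproxen at 2000 µM 6 were lower and 2 higher, with a summed level of 20350 to 21410 CPM, under caffeine at 10000 µM 4 were lower and 4 higher (18970 to 25630 CPM), and under indomethacin at 300 µM 3 were lower and 3 higher (24200 to 30110 CPM). Of the 5 Kupffer cell and leukocyte markers tested, 4 were lower under caffeine (summed level 5.77 to 14.8 CPM) and indomethacin at 300 µM (13.95 to 26.9 CPM) and 3 under naproxen at 2000 µM (16.0 to 37.9 CPM), and at most 1 moved in each direction under simvastatin, valproic acid, naproxen at 80 µM, sulfasalazine and WY14643 at both concentrations. Both stellate markers tested were lower under caffeine (6.87 to 36.4 CPM), indomethacin (15.4 to 74.3 CPM) and naproxen at 2000 µM (20.7 to 102 CPM), beside 35.0 to 168 CPM in vehicle, and 1 was higher under simvastatin, valproic acid at 400 µM and WY14643 at 8 µM. Of the 2 cholangiocyte markers tested, 1 was higher and 1 lower under naproxen at 2000 µM, simvastatin and WY14643 at 200 µM, 1 was lower under indomethacin and valproic acid, and 1 was higher under WY14643 at 8 µM. Their summed level was 9.69 to 16.2 CPM under naproxen at 2000 µM and 16.0 to 24.7 CPM under indomethacin, beside 33.1 to 49.0 CPM in vehicle. The part of these markers in the changes was not tested. These comparisons share their vehicle wells.

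High against low concentrations, which use no vehicle well, gave 19 calls higher and 52 lower among 98 combinations of a gene and a chemical, beside 20.1% and 20.7% of all genes. Ces1d, Aadac and Fmo1 were each lower at the high concentration in 10 of 14 chemicals, Ces2e and Ephx1 in 7, Ephx2 in 5 and Fmo5 in 3. They were higher in 6 for Ephx1, 5 for Ephx2, 3 for Fmo5, 2 for Ces1d and Ces2e, 1 for Aadac and 0 for Fmo1. Medium alone against vehicle gave 2 calls, the lower Ces1d and Ephx1 above, beside 7.51% of all genes higher and 5.1% lower. Neither was called in batch 1 alone.

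The difference between batches in the response passed the test in 10 of 196 combinations, beside 2.44% over all genes: 4 for Ephx2, 3 for Ephx1, 2 for Aadac and 1 for Fmo5. With 1 well of each group left out in turn, 2 to 5 combinations passed. The ST assay gave the same sign as the WT assay in 160 of 168 combinations, and 82 of the 90 WT calls among the 6 shared genes were also ST calls with one sign, where 34.8% of all ST combinations were called. The median difference between the assays was 0.14 on the L2FC scale and the largest was 1.72, for Fmo1 under diclofenac at 400 µM, where few counts remained.

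**Figure D5:**
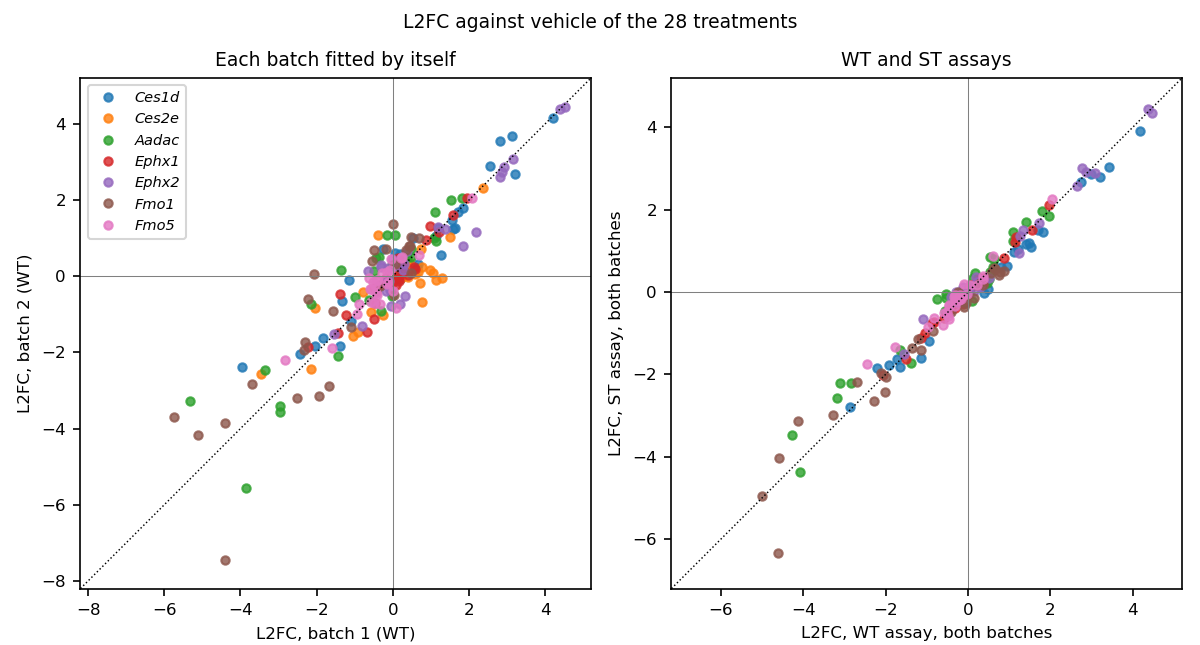
L2FC against vehicle of the measured genes in the 28 treatments, batch 2 against batch 1 in the WT assay (left) and the ST against the WT assay over both batches (right), coloured by gene; the dotted line marks equal values. Most points lie near the line, and the lowest Fmo1 values, with few or 0 counts, are among those far from it. On the left, Fmo1 under simvastatin at 60 µM and Aadac under ranitidine at 4000 µM lie off it too.

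The genes outside the group whose group means ran most like each of the 7, over the same 60 groups and 10191 genes, were Vnn1 (Pearson's r = 0.971, Spearman's rho = 0.881) and Acot4 (0.969, 0.88) for Ephx2, Nat8f3 (0.898, 0.846) and Aspdh (0.897, 0.878) for Aadac, AABR07057436.1 (0.877, 0.841) and Fer1l5 (0.873, 0.836) for Ces1d, and Serpinb1a (0.873, 0.849) for Fmo1. Ces2i (0.859, 0.735) and Ces2a (0.838, 0.683) ran most like Ces2e, and as close relatives may share reads with it. Rnaseh2a (0.83, 0.717) and Slc25a29 (0.823, 0.746) did for Fmo5, and Serpina7 (0.804, 0.701) and Aldh1a1 (0.776, 0.797) for Ephx1. Within the group Fmo5 had r of -0.05 to 0.01 to the 3 esterases and both epoxide hydrolases and 0.39 to Fmo1, with Spearman's rho of -0.18 to 0.08 and 0.35.

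Of 36 other hydrolases and monooxygenases listed, 28 had a WT symbol and 17 passed the filter. Their 476 combinations with the treatments gave 92 calls higher and 97 lower, beside the 15.2% and 15.0% of all combinations, and 59 and 64 in each batch alone, beside 8.13% and 7.7%. Their median L2FC was 0.04, beside 0.00 for all genes. Under WY14643, Nceh1, the neutral cholesterol ester hydrolase, rose at 200 µM (3.26 ± 0.187), as did Cmbl, a carboxymethylenebutenolidase that activates prodrug esters (2.85 ± 0.144), and Mgll, the monoacylglycerol lipase, rose at 8 µM (3.06 ± 0.136). Acetaminophen at 10000 µM lowered Bphl, the valacyclovir hydrolase (-3.87 ± 0.169). Acot12, a cytosolic acetyl-CoA hydrolase, fell under ranitidine at 4000 µM (-4.04 ± 0.165), Ces2h under valproic acid at 10000 µM (-2.66 ± 0.179) and Ces2g under diclofenac at 400 µM (-2.64 ± 0.139), all with adjusted p of 1.66e-30 or lower.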

How the data were processed

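Lysates of primary rat hepatocytes were measured by TempO-Seq in 186 wells with the WT assay (22253 probes) and in 186 with the ST assay (2654 probes). The authors deposited raw counts per probe and well, which were whole numbers at every probe. The submitters' processing notes name STAR 2.5.3a and the genome rn6. Here the counts of probes of one gene were added, and genes that averaged 10 or more counts per well were tested in edgeR 4.0.16 (quasi-likelihood test, TMM scaling, R 4.3.3) with batch as a term, Benjamini-Hochberg adjustment over all genes and calls at an adjusted p under 0.05. CPM scales a well's counts to a total of 1000000, and SE is the size of the L2FC divided by the square root of F. Batches were also fitted alone, high concentrations were set against low ones, and a batch by treatment term was tested. No sample column was left unused.

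The genes and lists were chosen with earlier results of these data known. Per-well values are given for the treatments with the largest rise and fall of each gene among those called in each batch alone, or, for the rise of Fmo1, over both batches. For the largest falls of Aadac and Ces2e, counts summed over a batch and ratios are given in their place. Up to 8 other hydrolases and the 2 most alike genes were named by size and by Pearson's r. Of the genes these rules name, 2 are not reported here. The design foresaw 9 genes, of which 7 could be fitted, so 196 combinations were tested. The batch pairs wells because its wells share 1 rat, 1 library preparation and 1 sequencing run. The differences between the batches over all genes correlated between any pair of the 30 conditions at 0.233 to 0.864 (median 0.62). Alternatives were DESeq2 1.42.0, RLE scaling, library size alone, no filter, an L2FC of at least 1 in size, single batches, vehicle wells of the same plate, the ST assay and leaving out wells in turn. The scripts were tested on simulated data. Promoter windows come from RefSeq on GRCr8, a different build from the counts, with no window for Ephx2.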

Additional observations from a re-analysis of the deposited data

Results flagged for a closer look

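In 10 combinations the change from vehicle differed between batch 1 and batch 2 by the batch by treatment term in edgeR, with p-values adjusted over all genes. Each batch is 1 rat, so a difference between rats, libraries and runs cannot be told apart. Aadac under doxorubicin at 2 µM had L2FCs of -1.36 in batch 1 and 0.16 in batch 2, a difference of 1.53 (adjusted p = 0.0259). At 0.08 µM it had -0.16 and 1.08, a difference of 1.24 (adjusted p = 0.0316).

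Ephx1 fell in both batches in all 3 of its differences. Batch 2 minus batch 1 was 0.93 under acetaminophen at 10000 µM (adjusted p = 0.000468), -0.62 under diclofenac at 400 µM (adjusted p = 0.0292) and -0.81 under valproic acid at 10000 µM (adjusted p = 0.00271).

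Ephx2 rose in both batches under caffeine at 10000 µM (1.84 and 0.78, difference -1.05, adjusted p = 0.000811) and naproxen at 80 µM (2.18 and 1.16, difference -0.995, adjusted p = 0.0131). Its L2FCs had opposite signs under diclofenac at 400 µM (0.18 and -0.74, difference -0.90, adjusted p = 0.013) and valproic acid at 10000 µM (0.31 and -0.52, difference -0.84, adjusted p = 0.018). Fmo5 under ketoconazole at 15 µM had 0.09 and -0.84 (difference -0.95, adjusted p = 0.0121). No single well stood apart from its group by Dixon's test in the 14 groups tested, the vehicle and the medium wells of batch 2 for each of the 7 genes; groups of 3 wells were not tested.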

How the results depend on the processing

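Of the 172 calls on the 7 genes (against vehicle, medium alone and high against low), 146 were kept in every fit that left out 1 well of each group in turn. The 99 calls against vehicle became 87 to 88 (36 to 38 higher, 49 to 52 lower), those in each batch alone 67 to 68, those of high against low 65 to 68, those of medium alone 2, and those of the other hydrolases 163 to 171. Differences between batches, 10 with all wells, fell to 2 to 5, with 5 without replicate 1, 2 without replicate 2 and 4 without replicate 3. With no replicate block, that is with the batch left out of the fit, there were 85 calls against vehicle (38 higher, 47 lower), 68 of high against low, 2 of medium alone and 164 of the other hydrolases. DESeq2 gave 104 calls against vehicle, RLE scaling 100, library size alone 99 and no filter 93. Against vehicle wells of the same plate in batch 2, 84 of the 99 calls were kept and 15 were not called. Library size alone shifted the median of all genes by over 0.1 in 10 treatments, from -0.41 to 0.28 on the log2 scale. With an L2FC of at least 1 in size also asked for, the other hydrolases had 94 calls in place of 189, differences between batches 3, and medium alone 0, as also in batch 1 alone. The sign turned in 3 cases, whose cause was not tested: Ces2e under sulfasalazine at 100 µM (-0.038 in batch 2 alone, 0.73 over both), Fmo1 under simvastatin at 60 µM (0.051 in batch 2 alone, -0.86 over both) and Ephx2 at high against low diclofenac (0.21 in batch 1 alone, -0.52 over both). Depth limits Ces2e, Aadac and Fmo1 most, with means of 15.1, 29.8 and 23.6 counts per well.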
